A study of Rattus norvegicus with 32 samples.

Results

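Gene expression was compared between clones of embryonic day 16 (E16) thymic epithelial cells that had been grafted into skin and a clone of the same stage that had not. The comparison takes in every E16 thymic culture of the series, 5 of 16 cultures and 10 of 32 arrays, grouped by their stage and transplantation labels. It was chosen with earlier results of these data known. The grafted arm held 4 clones with 2 arrays each, Clone_217 and Clone_218 after a first transplantation and Clone_287 and Clone_347 after a second. The ungrafted arm held the single clone PRE16cl11_VII with 2 arrays. All cells came from Sprague-Dawley rats that carry an EGFP transgene driven, by its name, from an actin promoter, and all were cultured over irradiated mouse 3T3-J2 feeder cells. Grafts were excised from the backs of nude mice and dissociated with trypsin, and the recovered clones were cultured again. The labels give the grafted clones other names than the ungrafted clone, so it is not known whether any of them descends from PRE16cl11_VII. Nor do the labels say whether Clone_287 or Clone_347 descends from Clone_217 or Clone_218, so the grafted clones may not be independent. No E16 culture was recovered and regrown without a graft, so transplantation, recovery and renewed culture cannot be told apart. The remaining cultures were thymic cells of postnatal day 1 (P1) or 4 months and hair follicle (HF) cells labelled P5, grafted and ungrafted. By their labels Clone_907, Clone_354, PRP4mo_bulk, YR219P5_Bulk_V and YR219P5_RC were bulk cultures, and the others were clones. Both grafted 4-month cultures, Clone_907 and Clone_354, were thus bulk cultures in spite of their names. The remaining cultures entered the model only to estimate the spread and to compare stages.

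Thymic epithelial cells are the epithelial cells of the thymus and support the development of T cells, a task that depends on the transcription factor Foxn1. They arise from pharyngeal endoderm, where Pax1, Pax9 and Isl1 are active, and many share the basal keratins and the factor Tp63 with the epidermis. Skin adds signals that direct stratification and hair follicle growth, and keratinocytes that pass through repeated culture come under the control of cell cycle inhibitors such as the products of Cdkn2a.

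The values are log2 signals of probe sets on a rat gene array, where 1 unit is a doubling. Medians of the 10 E16 arrays ran between 5.29 and 5.55. The arrays of a culture correlated across all 29215 probe sets at 0.984 in Clone_347. The correlation was 0.989 to 0.995 in the other grafted clones and 0.996 in PRE16cl11_VII. Probe sets are not independent, and this r describes arrays only. The labels do not say whether the arrays of a culture were separate RNA preparations, so the culture was the unit of every test. Background was not measured here, so a level under 4 counts only as a bound, and a fold against such a level is given as a lower bound.

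The 5 cultures carried the markers of cultured epithelium at similar levels. Krt14, a basal keratin, lay at 12.95 to 13.31 in the grafted clones and at 13.26 in the ungrafted clone, and the adhesion molecule Cdh1 at 10.7 to 10.8 and at 10.8. Tp63 lay at 9.10 to 9.58 in grafted clones and at 9.04 in the ungrafted clone, and the surface protein Epcam at 10.46 to 10.87 and at 10.5. Of the thymic factors, Pax9 lay at 7.87 to 8.76 in grafted clones and at 8.84 in the ungrafted clone, and Isl1 at 6.06 to 6.78 and at 6.76. Foxn1 lay at 5.48 to 6.0 in grafted clones and at 5.77 in the ungrafted clone, with a log2 difference of 0.02 ± 0.28 (SE). Pax1 lay at 4.99 to 5.55 in grafted clones and at 5.71 in the ungrafted clone. None of these genes passed the test. Krt5 was not analysed here. Among markers of blood cells, 0 of 13 measured passed, and Ptprc, Cd3e, Cd4 and Lyz2 were under 4 in all 5 cultures. Other members lay higher. The mean level of the list was 4.07 to 4.34 in grafted clones and 4.18 in the ungrafted clone. Its summed linear signal was 284.9 to 646.7 in grafted clones, highest in Clone_347, and 348.5 in the ungrafted clone.

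Grafted clones differed from the ungrafted clone in 51 of 15316 probe sets (0.333%), for 49 genes, at an adjusted p under 0.05 in limma with Benjamini-Hochberg adjustment. Of these, 13 were higher in grafted clones (0.0849%) and 38 were lower (0.248%). For 3088 probe sets (20.2%) all 8 grafted arrays lay on one side of both ungrafted arrays. Without adjustment 1504 probe sets had p under 0.05, and the median log2 difference of all probe sets was 0.03. The decreases were more numerous, and they included the cell cycle inhibitor gene Cdkn2a, a group of imprinted genes (Snurf, Sgce and Grb10), the lipase gene Lpl, the chloride channel gene Cftr and the interferon-induced gene Mx1. The increases were led by the sulfotransferase gene Sult1d1, the pyrophosphate-forming enzyme gene Enpp1 and the homeobox gene Dlx5. The lone ungrafted culture gives no spread of its own, so the test assumes that it varies as cultures of the other groups do.

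**Figure D1:**
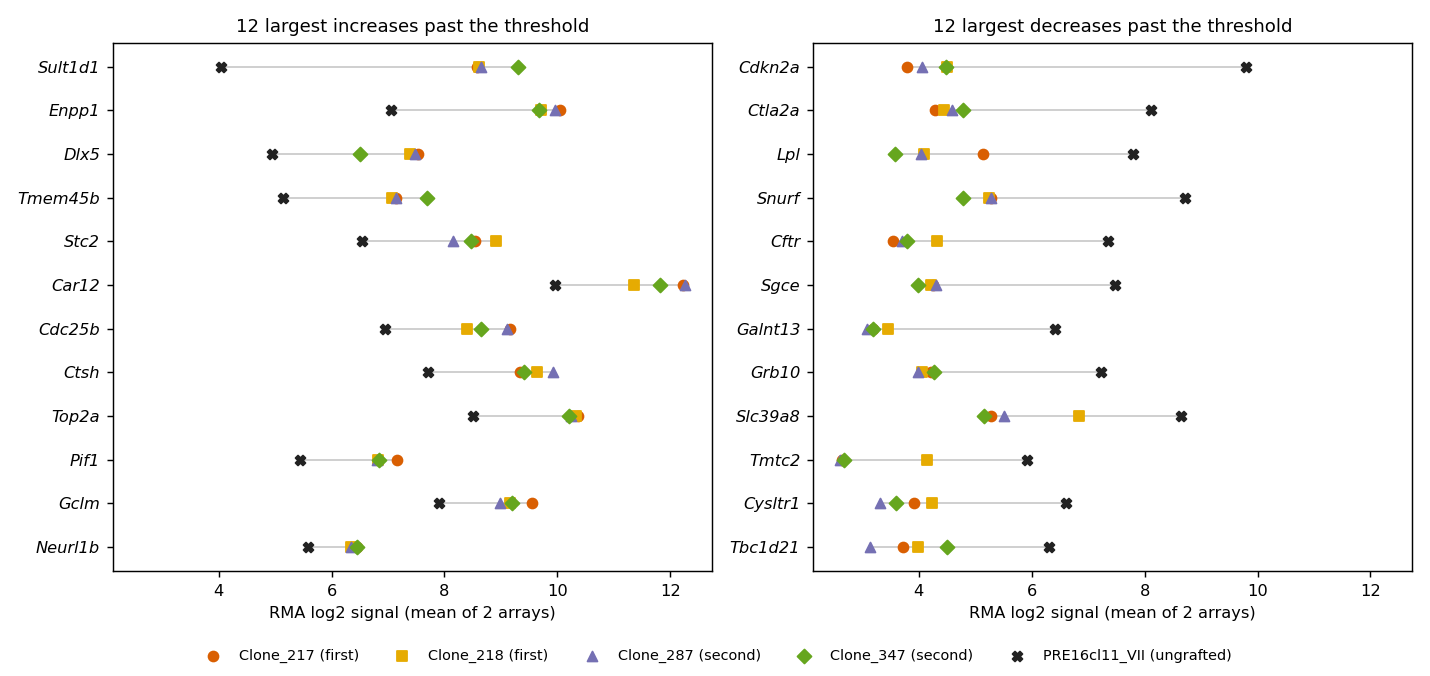
Log2 signal (horizontal axis, mean of 2 arrays) of the genes with the largest increases (left) and decreases (right) past the threshold. Coloured symbols are the 4 grafted clones and the black cross is ungrafted PRE16cl11_VII. The cross lies apart from all grafted clones for every gene shown because the choice of genes required it. Cdkn2a spans 3.79 to 4.49 in grafted clones against 9.79.

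Cdkn2a, which encodes the Ink4a and Arf growth inhibitors, gave the largest difference named here. Its level was 3.79 in Clone_217, 4.49 in Clone_218, 4.05 in Clone_287 and 4.48 in Clone_347, against 9.79 in the ungrafted clone. The 8 grafted arrays lay between 3.50 and 5.36 and the ungrafted arrays at 9.82 and 9.77, so the arms were far apart. Cdkn2a fell by 5.59 ± 0.91 (SE) on the log2 scale, at least 46.5-fold, with an adjusted p of 0.0336 in limma. Its call was lost when any one of 9 other cultures was left out, with an adjusted p of up to 0.0828. These were Clone_217, Clone_287, Clone_347, Clone_57, Clone_194, YR219P5_RC, Clone_54, PRP4mo_bulk and PRP4mo_Cl09, giving differences between -5.45 and -5.68. The call was kept in 8 of 17 fits that left out a culture or an ungrafted array, among them without Clone_907 and without Clone_354. Those grafted 4-month cultures lay apart, at 8.04 and 4.43, and their spread enters the SE. Cdkn2a also passed with only the E16 cultures (adjusted p = 0.00809, limma) and with separate coefficients for first and second transplantation. Against all 4 ungrafted thymic cultures the difference was -5.81 (adjusted p = 0.00025).

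Cdkn2b, the neighbouring gene and another cyclin-dependent kinase inhibitor, lay at 6.05, 6.04, 5.91 and 6.53 in Clone_217, Clone_218, Clone_287 and Clone_347, against 8.76 in the ungrafted clone. That difference of -2.63 ± 0.57 did not pass (adjusted p = 0.088, limma). Mtap, a methionine salvage enzyme gene on the other side of the locus, differed by -0.91 ± 0.35 (adjusted p = 0.39), and it was looked up after the Cdkn2a value was seen. Among 14 measured genes of p53 signalling and senescence, 0 were higher and 1, Cdkn2a, was lower, with a median of -0.17. Over all probe sets 0.248% were lower past the threshold. Cdkn1a, the p53 target that also inhibits cyclin-dependent kinases, was at 10.22 to 10.76 in grafted clones and at 10.50 in the ungrafted clone. Its grafted range therefore enclosed the ungrafted value.

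Imprinted genes, which are read mainly from the copy of one parent, gave 3 of the decreases. Of 16 measured, 0 were higher and 3 were lower, where 0.248% of all probe sets were lower past the threshold. The median of the list was -0.13 against 0.03 over all probe sets. The list was drawn up with earlier results of these data known, so its count is a description. Snurf, part of the transcript it shares with Snrpn and paternally expressed in mouse, was at 5.27, 5.24, 5.28 and 4.79 in Clone_217, Clone_218, Clone_287 and Clone_347, against 8.71 in the ungrafted clone. Its grafted values were close together, and it fell by 3.57 ± 0.35 (11.9-fold, adjusted p = 0.00245, limma). Snrpn itself, on a probe set of its own, differed by -0.66 ± 0.15 (adjusted p = 0.107, limma). How far each of the 2 probe sets detects the shared transcript was not tested.

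Sgce, an epsilon-sarcoglycan gene that is paternally expressed in mouse, was at 4.25, 4.22, 4.30 and 3.99 in Clone_217, Clone_218, Clone_287 and Clone_347, against 7.48 in the ungrafted clone. It fell by 3.29 ± 0.41 (at least 9.79-fold, adjusted p = 0.00856). Grb10, an adaptor that binds insulin and growth factor receptors and is maternally expressed in most mouse tissues, was at 4.21, 4.05, 3.98 and 4.27, against 7.24 in the ungrafted clone. It fell by 3.11 ± 0.33 (at least 8.59-fold, adjusted p = 0.00401). The arms did not overlap for any of these genes, but the choice of the largest decreases required this. All 8 grafted arrays lay below both ungrafted arrays for 10.7% of all probe sets. With 11 coefficients the calls of Sgce and Grb10 were lost (adjusted p = 0.0748 and 0.0506), while Snurf passed. The other 13 measured members did not pass, among them H19 at -0.37, Igf2 at -0.19, Meg3 at 0.12, Mest at 0.56 and Cdkn1c at 1.17.

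The promoter windows of these imprinted genes are shown because their regulation is known to involve methylation of CG pairs. No methylation was measured here. Each window holds 300 bases, 250 before and 50 after the annotated start, from RefSeq on the rat build GRCr8, and reads 5′ to 3′ on the strand of the gene, the minus strand in each case. They lie at chr1:120339104-120339403 for Snurf, chr4:33808739-33809038 for Sgce and chr14:90816338-90816637 for Grb10. Every CG, which reads the same on both strands, is in capitals.
Snurf: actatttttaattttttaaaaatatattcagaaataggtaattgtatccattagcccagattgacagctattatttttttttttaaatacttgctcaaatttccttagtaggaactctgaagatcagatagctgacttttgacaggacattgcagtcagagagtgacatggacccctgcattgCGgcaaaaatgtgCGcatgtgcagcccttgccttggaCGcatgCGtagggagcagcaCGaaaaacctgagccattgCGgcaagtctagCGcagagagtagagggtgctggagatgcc
Sgce: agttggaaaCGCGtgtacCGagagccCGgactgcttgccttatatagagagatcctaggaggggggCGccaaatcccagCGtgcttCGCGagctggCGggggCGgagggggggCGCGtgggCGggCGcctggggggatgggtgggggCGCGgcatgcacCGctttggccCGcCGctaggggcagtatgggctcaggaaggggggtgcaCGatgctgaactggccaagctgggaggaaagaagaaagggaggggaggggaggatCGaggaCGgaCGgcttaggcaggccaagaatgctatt
Grb10: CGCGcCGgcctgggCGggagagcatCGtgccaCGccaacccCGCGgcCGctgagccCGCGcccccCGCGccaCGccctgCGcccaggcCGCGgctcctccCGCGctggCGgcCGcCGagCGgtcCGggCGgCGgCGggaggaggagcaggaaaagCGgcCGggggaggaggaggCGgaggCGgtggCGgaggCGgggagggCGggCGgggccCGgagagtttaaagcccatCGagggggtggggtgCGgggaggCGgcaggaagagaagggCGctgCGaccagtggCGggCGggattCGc
Grb10 held 44 CG, a number reached by 1.89% of 33469 promoter windows of this length, and Sgce held 23, reached by 19.5%. Snurf held 7, which is also the median over all windows. The Cdkn2a window (chr5:109107907-109108206, minus strand) held 13, reached by 35.3%. At least 1 CG was present in 94.5% of the windows, and these counts describe letters only. The genes that fell together thus ranged from a typical to a high number of CG.

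Most genes of the cell cycle list had positive differences, and 1 rose in grafted clones. Of 20 measured cell cycle genes, 1 was higher past the threshold, as were 0.0849% of all probe sets, and 0 were lower. The median was 0.81 against 0.03 over all probe sets. Of the 20 differences 18 were positive, against 8594 of 15316 over all probe sets. All 8 grafted arrays lay above both ungrafted arrays for 15 of the 20 genes, against 9.47% of all probe sets. The gene that passed was Top2a, which encodes the topoisomerase that untangles chromosomes before mitosis. It was at 10.37, 10.34, 10.24 and 10.21 in Clone_217, Clone_218, Clone_287 and Clone_347, against 8.51 in the ungrafted clone. Top2a rose by 1.79 ± 0.25 (3.45-fold, adjusted p = 0.0147, limma). The ungrafted clone lay below the other ungrafted thymic cultures (9.52 to 9.91), and against all 4 of them the Top2a difference was 0.87 (adjusted p = 0.0419). With 11 coefficients, 1 per transplantation group, the Top2a call was lost (adjusted p = 0.0741). Cyclin genes Ccnb2 and Ccnb1 differed by 1.39 and 1.22 and the mitotic kinase genes Plk1 and Cdk1 by 1.25 and 1.19, with adjusted p between 0.076 and 0.158, none past the threshold. Ccne1 and Ccnd1, cyclins of the first growth phase, had differences of the opposite sign, -1.15 and -0.62, and did not pass either. Mki67 was not analysed here. Cell density and the share of dividing cells at harvest are not given in the sources used here, and in a culture more dividing cells and more RNA per dividing cell cannot be told apart.

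Outside that list, 2 more genes of DNA and division rose. Cdc25b, the phosphatase that activates mitotic kinases, was at 8.40 to 9.17 in grafted clones and at 6.96 in the ungrafted clone, a rise of 1.88 ± 0.31 (adjusted p = 0.0336). Pif1, a DNA helicase, was at 6.80 to 7.16 in grafted clones and at 5.44 in the ungrafted clone, a rise of 1.46 ± 0.24 (adjusted p = 0.0336), and its other probe set also passed. Cdc25b and Pif1 are not independent of the cell cycle pattern, because the same 5 cultures give both.

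The other increases included genes of metabolism and secreted products. Sult1d1, a cytosolic enzyme that adds sulfate to small molecules, was at 8.58, 8.62, 8.64 and 9.30 in Clone_217, Clone_218, Clone_287 and Clone_347, against 4.04 in the ungrafted clone. It rose by 4.74 ± 0.54 (26.7-fold, adjusted p = 0.00565, limma). Enpp1, which forms pyrophosphate outside the cell from ATP, was at 10.06, 9.72, 9.95 and 9.67, against 7.04 in the ungrafted clone, a rise of 2.81 ± 0.31 (6.99-fold, adjusted p = 0.00494). Both genes separated the arms by far more than the spread between grafted clones, whose SD was 0.34 for Sult1d1 and 0.18 for Enpp1. Stc2, a secreted glycoprotein hormone, rose by 1.98 (adjusted p = 0.0159). Car12, a carbonic anhydrase of the cell membrane, rose by 1.96 (adjusted p = 0.0188), and Ctsh, a lysosomal protease, by 1.88 (adjusted p = 0.0148). Gclm, a subunit of the first enzyme of glutathione synthesis, rose by 1.32 (adjusted p = 0.0398), and the membrane protein gene Tmem45b by 2.12 (adjusted p = 0.0297). Neurl1b, a ubiquitin ligase that acts on Notch ligands, rose by 0.82 ± 0.13 (adjusted p = 0.0227), with grafted clones at 6.34 to 6.45 and the ungrafted clone at 5.57.

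Dlx5, a homeobox factor of surface ectoderm and bone, was at 7.53, 7.38, 7.48 and 6.50 in Clone_217, Clone_218, Clone_287 and Clone_347, against 4.94 in the ungrafted clone. It rose by 2.29 ± 0.40 (4.88-fold, adjusted p = 0.0398, limma). It was the 1 of 16 measured surface ectoderm factors that passed, and 0 were lower. Over all probe sets 0.0849% were higher past the threshold. The list had a median of 0.23, and Tfap2a, Klf4, Ovol2 and Dlx3, other regulators of stratified epithelium, had differences of 0.47 to 0.55 that did not pass. Calls for 6 of the increases were lost when single cultures were left out. Dlx5, Tmem45b, Cdc25b, Pif1, Gclm and Neurl1b no longer passed without Clone_217, without Clone_57 or without Clone_194. Clone_287, Clone_347, YR219P5_RC, Clone_54 and both ungrafted 4-month cultures had that effect for some of them, and the adjusted p reached at most 0.0997. The calls of these 6 genes and of Stc2, Car12 and Ctsh were also lost in a fit of the 5 E16 cultures alone (adjusted p of 0.0621 to 0.14) and with 11 coefficients (0.0506 to 0.154). Of the increases in metabolic genes, Sult1d1 and Enpp1 passed in both fits.

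Transport and lipid genes were among the decreases. Cftr, the epithelial chloride channel, was at 3.54, 4.33, 3.71 and 3.79 in Clone_217, Clone_218, Clone_287 and Clone_347, against 7.36 in the ungrafted clone, a decrease of at least 9.67-fold (adjusted p = 0.00201, limma). Lpl, which releases fatty acids from circulating triglycerides, was at 5.14, 4.10, 4.03 and 3.57, against 7.79 in the ungrafted clone, a decrease of at least 11.1-fold (adjusted p = 0.0117). The grafted clones were near or under 4 for both genes, apart from Clone_217 for Lpl. Slc39a8, an importer of zinc and manganese, fell by 2.96 ± 0.52 (adjusted p = 0.0419). Galnt13, which starts O-linked sugar chains on proteins, was under 4 in all 4 grafted clones and at 6.42 in the ungrafted clone, a decrease of at least 5.33-fold (adjusted p = 0.00635). Cysltr1, a receptor for cysteinyl leukotrienes, was at 3.31 to 4.23 in grafted clones and at 6.61 in the ungrafted clone, a decrease of at least 5.84-fold (adjusted p = 0.00635). Ctla2a, an inhibitor of cysteine proteases in mouse, fell by 3.59 ± 0.62 (adjusted p = 0.0398). Tmtc2 and Tbc1d21 fell by at least 3.67-fold and 4.53-fold (adjusted p = 0.0414 and 0.0279). The calls of Ctla2a, Slc39a8, Tmtc2 and Tbc1d21 were lost without Clone_217, Clone_57, Clone_194, YR219P5_RC or Clone_54, with an adjusted p of up to 0.0997. Further single cultures did so for some of these genes: Clone_287 and Clone_347 for Ctla2a, Slc39a8 and Tmtc2, the ungrafted 4-month cultures for Slc39a8 and Tmtc2, Clone_907 and Clone_354 for Tmtc2, and the first ungrafted array for Slc39a8. In the fit of E16 cultures alone the calls of Lpl, Slc39a8, Cysltr1, Tmtc2 and Tbc1d21 were lost (adjusted p of 0.0567 to 0.207), and with 11 coefficients those of Lpl, Slc39a8, Galnt13, Ctla2a, Tmtc2 and Tbc1d21 (0.0506 to 0.113).

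**Figure D2:**
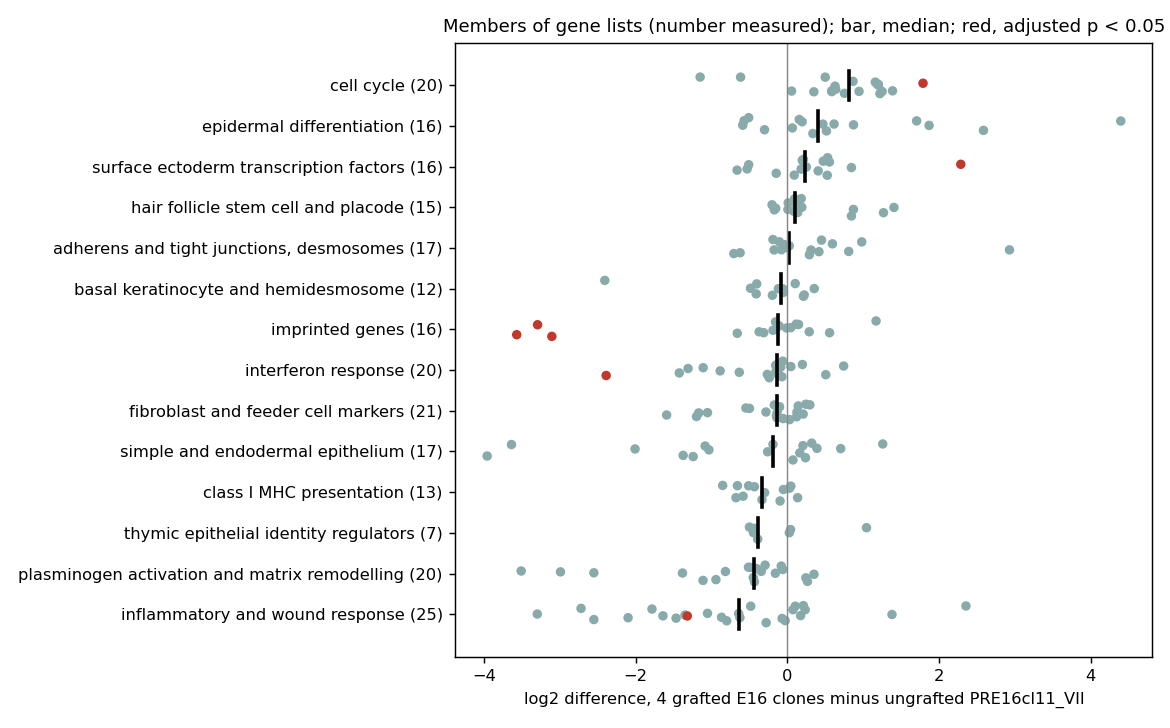
Each point is the log2 difference of 1 gene, the mean of 4 grafted clones minus ungrafted PRE16cl11_VII, in 14 gene lists (vertical axis, with the number of genes measured). Black bars are list medians, from 0.81 for cell cycle genes to -0.64 for inflammatory genes, and red points passed the test.

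Inflammatory and wound response genes showed the lowest median of the 29 lists. Of 25 measured, 0 were higher and 1 was lower past the threshold, as were 0.248% of all probe sets, with a median of -0.64. All 8 grafted arrays lay below both ungrafted arrays for 15 of the 25, against 10.7% of all probe sets. The gene that passed was Lcn2, a secreted protein that binds bacterial siderophores, at 5.28, 5.07, 5.19 and 5.03 in Clone_217, Clone_218, Clone_287 and Clone_347, against 6.46 in the ungrafted clone. Lcn2 fell by 1.32 ± 0.17 (2.50-fold, adjusted p = 0.0107, limma), and its call was lost in a fit of the E16 cultures alone (adjusted p = 0.0621). Several larger differences did not pass. The cytokine gene Il1a differed by -3.30 ± 0.89 (adjusted p = 0.176) and the chemokine gene Cxcl1 by -2.72 (adjusted p = 0.164). Nfkbia, which restrains NF-kappa-B, differed by -1.35 ± 0.25 (adjusted p = 0.055), and the prostaglandin synthase gene Ptges by -1.47 ± 0.38 (adjusted p = 0.158). Casp1, the protease that matures interleukins, had a difference of 2.35 in the other direction and did not pass (adjusted p = 0.41).

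The related EGF family holds ligands and receptors that drive keratinocyte growth and migration. Of 15 measured members 0 were higher and 1 was lower, as were 0.248% of all probe sets, with a median of 0.02. Hbegf, a ligand of the EGF receptor, was at 9.72, 10.03, 10.00 and 9.60 in Clone_217, Clone_218, Clone_287 and Clone_347, against 11.07 in the ungrafted clone. It fell by 1.23 ± 0.17 (2.35-fold, adjusted p = 0.0131, limma). The Hbegf call was lost in a fit of the E16 cultures alone (adjusted p = 0.125) and with 11 coefficients (adjusted p = 0.0961). The receptor gene Egfr differed by 0.46 and the ligand genes Ereg and Areg by -0.97 and -0.54, without passing.

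Mx1, an antiviral GTPase induced by interferon, had the smallest adjusted p of the comparison, 0.000307 in limma. It was under 4 in every grafted clone (3.70, 3.74, 3.30 and 3.58 in Clone_217, Clone_218, Clone_287 and Clone_347), against 5.97 in the ungrafted clone, a decrease of at least 3.91-fold. It was the 1 of 20 measured interferon response genes that passed, with 0 higher and a median of -0.14. Over all probe sets 0.248% were lower past the threshold. Rsad2 and Isg15, both induced by interferon, differed by -0.89 ± 0.17 (adjusted p = 0.065) and -1.11 ± 0.33 (adjusted p = 0.229). Of the 20 differences 4 were positive, against 8594 of 15316 over all probe sets. Ifit1, Stat2 and Bst2 were among the positive ones and did not pass.

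Lgals7, Cdc42ep5 and Plaur, the markers set for this comparison, had large differences that did not pass, and their levels varied widely between grafted clones. They were chosen with earlier results of these data known. Lgals7, a galectin of stratified epithelia, was at 11.44 in Clone_217, 6.94 in Clone_218, 11.90 in Clone_287 and 8.67 in Clone_347, against 5.34 in the ungrafted clone. All grafted arrays were above both ungrafted arrays, yet the range within the grafted arm was wide, and the difference was 4.39 ± 1.41 (SE, adjusted p = 0.272, limma). Cdc42ep5, an effector of the Cdc42 GTPase, was at 6.38, 8.38, 6.24 and 7.28 in Clone_217, Clone_218, Clone_287 and Clone_347, against 10.31 in the ungrafted clone (difference -3.24 ± 0.67, adjusted p = 0.0804). Plaur, the urokinase receptor, was at 7.96, 9.31, 7.36 and 8.54 in those clones, against 10.85 in the ungrafted clone (difference -2.55 ± 0.51, adjusted p = 0.0741). In each gene Clone_287 lay farthest from the ungrafted clone and Clone_218 nearest to it. Without Clone_218 all 3 passed, with differences of 5.33 for Lgals7, -3.68 for Cdc42ep5 and -2.89 for Plaur. The adjusted p values were 0.0364, 0.00723 and 0.00521 in limma. Leaving out the nearest clone must enlarge each difference. Of 17 fits that left out a culture or an ungrafted array, any of the 3 passed in this fit alone. In the fit of the E16 cultures alone none passed (adjusted p = 0.592, 0.271 and 0.314, in the same order). With 11 coefficients none passed either (adjusted p = 0.485, 0.186 and 0.171).

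**Figure D3:**
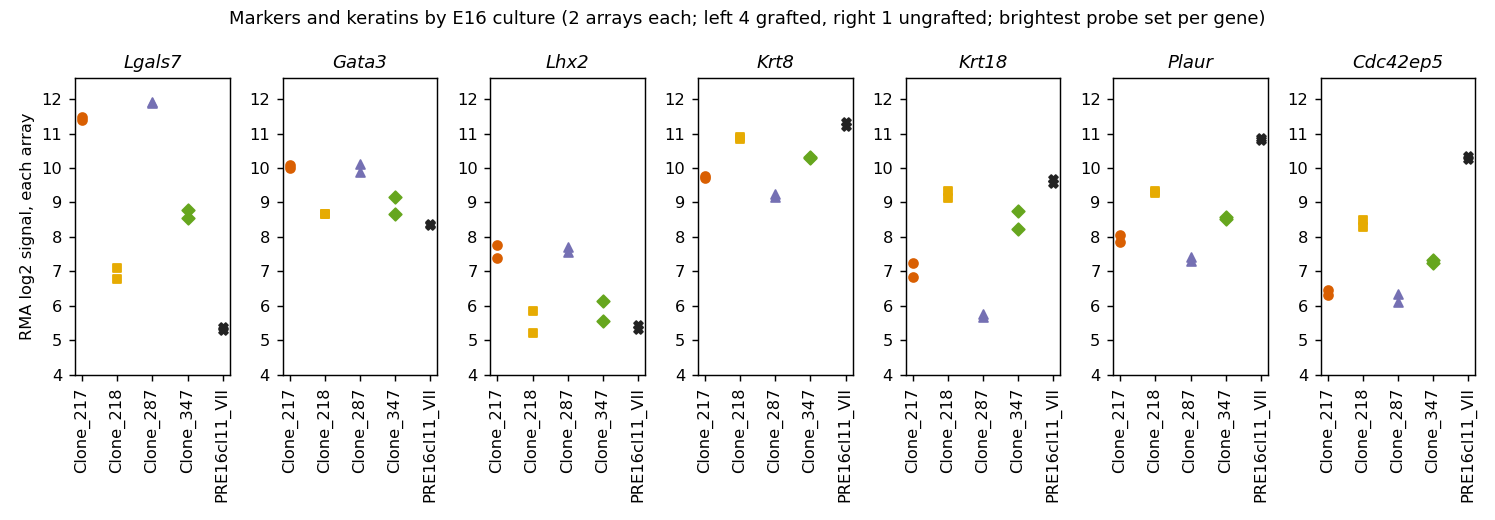
Log2 signal on each array (vertical axis) of 7 genes in the 4 grafted clones and, at the right of each panel, ungrafted PRE16cl11_VII. Clone_217 and Clone_287 lie farthest from the ungrafted clone in each panel, and the means of Clone_218 and Clone_347 lie between, though 1 Lhx2 array of Clone_218 is below both ungrafted arrays.

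For the keratins of simple epithelia and for Gata3 and Lhx2, the levels also varied between grafted clones. Krt8 (probe set 10751352) was at 9.74, 10.86, 9.21 and 10.31 in Clone_217, Clone_218, Clone_287 and Clone_347, against 11.27 in the ungrafted clone, and its difference of -1.24 ± 0.46 did not pass (adjusted p = 0.353). The probe set of its partner Krt18 with the highest level (10940455) was at 7.03, 9.22, 5.72 and 8.49 in those clones, against 9.63 in the ungrafted clone, and differed by -2.01 ± 0.99. The other Krt18 probe sets differed by -0.39 and -1.52, and the other Krt8 probe set by -1.30, none past the threshold. The list of simple and endodermal epithelium genes to which they belong had 0 of 17 past, a median of -0.19 and 8 positive differences, among them 1.26 for the transcription factor gene Ehf and 0.70 for Sox2. Gata3, a transcription factor used in thymus and skin, was at 10.04, 8.66, 10.00 and 8.90 in grafted clones and at 8.36 in the ungrafted clone. Lhx2, a hair follicle stem cell factor, was at 7.57, 5.52, 7.64 and 5.84 in grafted clones and at 5.38 in the ungrafted clone. Neither Gata3 nor Lhx2 passed (adjusted p = 0.516 and 0.606).

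No member passed in the lists of epidermal, follicle or thymic function genes. Epidermal differentiation genes had 0 of 16 past the threshold and a median of 0.40, with Calml3, a calmodulin-like protein of stratified epithelia, at a difference of 2.58 ± 0.57 (adjusted p = 0.099). Hair follicle stem cell and placode genes had 0 of 15 past and a median of 0.10, and hair shaft and inner root sheath genes 0 of 16 and 0.13. Thymic identity regulators had 0 of 7 past and a median of -0.39, and thymic function genes, among them Aire and Psmb11, 0 of 16 and 0.03. Class II genes of antigen presentation had 0 of 12 past and a median of 0.11, and Cd74, the class II chaperone, was at 5.22 to 7.10 in grafted clones and at 6.22 in the ungrafted clone. Class I genes had 0 of 13 past and a median of -0.34. Genes of plasminogen activation and matrix remodelling had 0 of 20 past and a median of -0.44. Among them Has2, a hyaluronan synthase, differed by -3.51 ± 1.13 (adjusted p = 0.278) and the collagen cross-linking enzyme gene Loxl1 by -2.99 ± 0.84 (adjusted p = 0.205).

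Gjb2, the connexin of gap junctions in activated epidermis, differed by 2.93 ± 0.63 (adjusted p = 0.088), and Scd, a fatty acid desaturase, by 1.66 ± 0.32 (adjusted p = 0.065). The stem cell surface gene Prom1 and the urothelial gene Upk1b differed by -3.96 ± 1.27 and -3.64 ± 1.09 and did not pass. Lists of junction, Wnt, BMP and TGF-beta, Notch, hypoxia, sebaceous, basal, wound keratin and mesenchymal transition genes each had 0 past and medians between -0.12 and 0.22. Markers of fibroblasts, which the feeder layer could contribute, had 0 of 21 past and a median of -0.14. The mean level of that list was 5.98 to 6.30 in grafted clones and 6.39 in the ungrafted clone, and the summed linear signal was 5466 to 8718 in grafted clones and 10840 in the ungrafted clone. Its part in the differences above was not tested. Of its members, Dcn, Postn and Lum were under 4 in all 5 cultures, and others lay higher. All 8 grafted arrays lay below both ungrafted arrays for 6 of the 21, against 10.7% of all probe sets. The feeder cells are of mouse, and how far their RNA gives signal on a rat array was not measured here. Markers of melanocytes and endothelium had 0 of 6 and 0 of 9 past.

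Among the E16 cultures, clones were not nearest to those with the same number of transplantations. Over all tested probe sets the root mean square log2 distance was smallest between Clone_217 and Clone_287 (0.256), followed by Clone_218 and Clone_347 (0.368), so the nearest pairs each joined a first with a second transplantation. Clones of the same transplantation were 0.412 apart (Clone_217 and Clone_218) and 0.496 apart (Clone_287 and Clone_347). The distance from the ungrafted clone was 0.510 for Clone_217, 0.389 for Clone_218, 0.541 for Clone_287 and 0.528 for Clone_347. Clone_218 was thus nearer to the ungrafted clone than to Clone_217. These distances are descriptions with no test.

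The direct comparison of second with first transplantation called 0 of 15316 probe sets (0%), 161 at an unadjusted p under 0.05, with limma. Its smallest p belonged to Slc4a4, a bicarbonate cotransporter, at 4.86 and 5.04 after the second and 5.83 and 5.84 after the first transplantation, a difference of -0.89 ± 0.14 (adjusted p = 1.00). Against the ungrafted clone, 7 probe sets passed after the second transplantation (0.0457%) and 6 after the first (0.0392%), all lower in grafted clones. These 2 comparisons share their ungrafted culture. For Cdkn2a the differences were -5.53 ± 0.41 after the second and -5.65 ± 0.41 after the first transplantation, for Snurf -3.68 ± 0.38 and -3.46 ± 0.38, and for Mx1 -2.53 ± 0.17 and -2.25 ± 0.17. Slc4a4 differed from the ungrafted clone by -3.40 ± 0.17 after the second and -2.51 ± 0.17 after the first transplantation, and both passed (adjusted p = 0.0006 and 0.00415). The amino acid transporter gene Slc38a4 differed by -4.31 ± 0.47 (adjusted p = 0.0306) and -2.51 ± 0.47 (adjusted p = 0.219). In the comparison of all grafted E16 clones with the ungrafted clone neither gene passed. There Slc4a4 differed by -2.96 ± 0.69 and Slc38a4 by -3.41 ± 0.825 (adjusted p = 0.128 and 0.139, limma). The spread of Slc4a4 between Clone_907 (7.17) and Clone_354 (4.57) enters the SE of that comparison only.

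**Figure D4:**
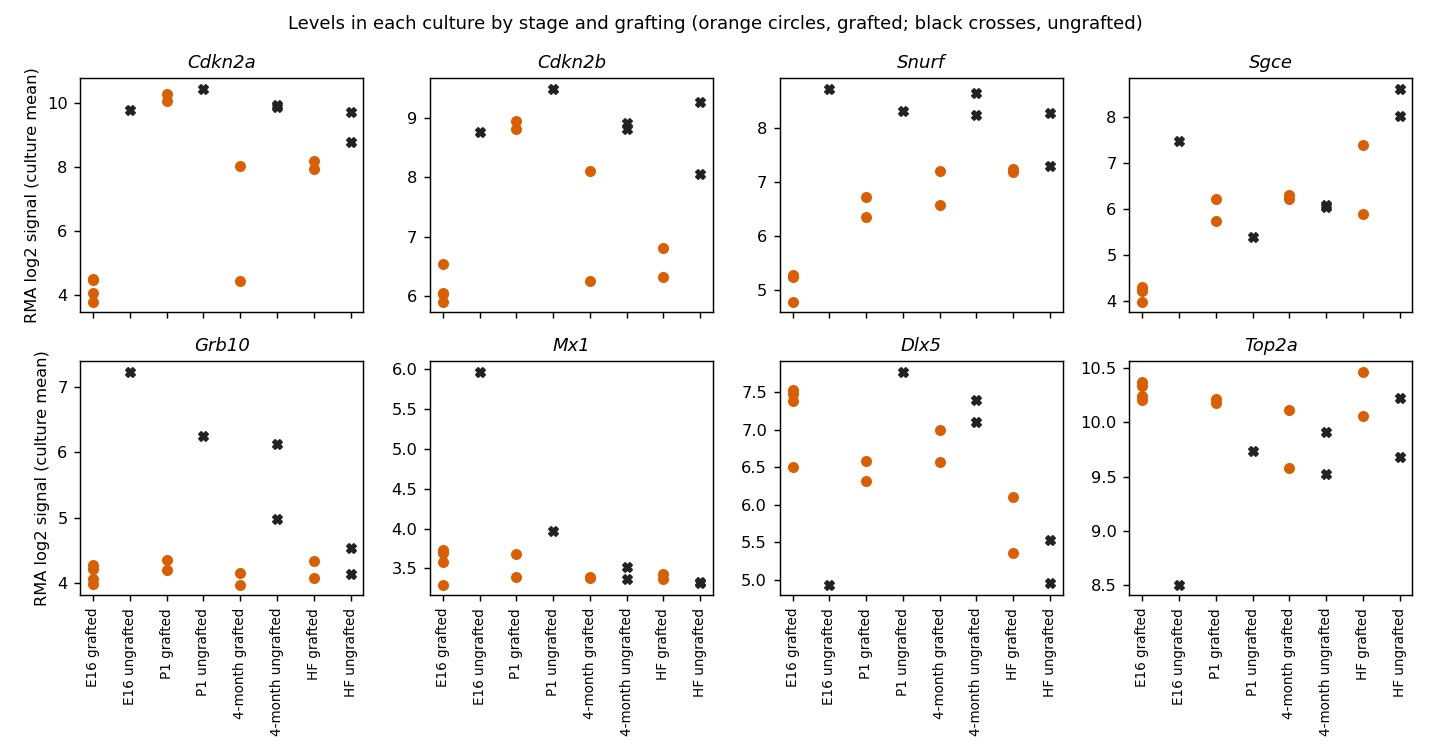
Log2 signal of 8 genes in each of the 16 cultures (vertical axis), by stage and tissue, with grafted cultures (orange circles) left of ungrafted ones (black crosses). Cdkn2a is near 4 in the grafted E16 clones and in Clone_354 (4.43, 4-month), and Mx1 is above 4 in ungrafted PRE16cl11_VII alone (5.97).

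The same contrast was set beside those of P1 and 4-month thymic cells, each with ungrafted cultures of its own. The direct test of E16 against P1 responses called 0 probe sets (0%), with 421 at an unadjusted p under 0.05 and a smallest adjusted p of 0.132. The test against 4-month responses called 3 (0.0196%), 1 of them with a higher (0.00653%) and 2 with a lower (0.0131%) E16 response. The genes called at E16 mostly had differences of the same sign at the other stages: 12 of 13 higher and 30 of 38 lower probe sets at P1, and 12 of 13 and 35 of 38 at 4 months. Over all probe sets that were higher or lower at E16, 58.1% and 64.5% shared the sign at P1, and 62.1% and 65.0% at 4 months. The sizes were smaller, with medians of 0.58 at P1 and 0.92 at 4 months for the probe sets higher at E16, where the E16 median was 1.88. For the lower ones the medians were -0.44 at P1 and -0.60 at 4 months, where the E16 median was -1.68. The E16 values chose these probe sets, so a smaller value elsewhere is not a test.

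The levels of Cdkn2a in the other cultures are given side by side. P1 cells were at 10.29 (Clone_57) and 10.05 (Clone_194) when grafted and at 10.44 when ungrafted. Among 4-month cells, Clone_907 was at 8.04 and Clone_354 at 4.43, against 9.88 and 9.94 in ungrafted cultures. Grafted HF cultures were at 8.20 and 7.94, against 9.73 and 8.80 in ungrafted ones. The 4 grafted E16 clones and Clone_354 were thus the cultures with Cdkn2a near 4, and in those 5 Cdkn2b was at 5.91 to 6.53. Cdkn2b was also at 6.32 in the grafted HF culture YR219P5_RC, where Cdkn2a was at 8.20. The difference between the E16 and P1 responses of Cdkn2a, -5.32 ± 1.35, did not pass (adjusted p = 1.00, limma), nor did that between E16 and 4 months, -1.92 ± 1.22.

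For Snurf and Sgce the grafted E16 clones were the lowest cultures of the series. Snurf was at 4.79 to 5.28 in grafted E16 clones, whereas the other cultures lay between 6.35 and 8.71. Sgce was at 3.99 to 4.30 in grafted E16 clones, whereas the other cultures lay between 5.38 and 8.61. At P1 Sgce was at 6.22 and 5.73 in grafted cultures and at 5.38 in the ungrafted culture, and the E16 response minus the P1 response, -3.89 ± 0.61 on the log2 scale, did not pass (adjusted p = 0.356). Grb10 was low in grafted thymic cultures of every stage (3.97 to 4.36), against 4.97 to 7.24 in ungrafted thymic cultures. Grb10 was also low in HF cultures, at 4.07 and 4.34 when grafted and at 4.14 and 4.53 when ungrafted.

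Some of the differences turned on values that were particular to PRE16cl11_VII among ungrafted thymic cultures. Mx1 was at 5.97 there, whereas the other ungrafted thymic cultures lay between 3.37 and 3.97. Dlx5 was at 4.94 there, against 7.10 to 7.77 in the other ungrafted thymic cultures. Tbc1d21 was at 6.30 there and at 3.53 to 3.77 in the others. Slc39a8 was at 8.65 there and at 5.71 to 6.54 in the others. When all 4 ungrafted thymic cultures formed the control arm, 34 of the 51 calls were kept and 17 were lost, the lost ones including Mx1 (-0.63), Dlx5 (0.42), Tbc1d21 (-0.49), Slc39a8 (-1.02), Lpl (-1.70), Ctla2a (-1.63) and Tmtc2 (-1.31). Among the kept calls, the differences of Top2a (0.87), Cftr (-1.63), Galnt13 (-1.81), Sgce (-2.06) and Grb10 (-2.02) were smaller by more than 1.5 times. For all 17 lost probe sets PRE16cl11_VII lay outside the range of the other 3 ungrafted thymic cultures, as it did for 23 of the 34 kept and for 62.1% of all probe sets. That arm mixes donor stages and called 1771 probe sets, among them Lgals7 at 4.64, Cdc42ep5 at -3.58 and Plaur at -2.08 (adjusted p = 0.00538, 0.00069 and 0.00265).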

How the data were processed

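RNA of 16 rat epithelial cultures was hybridised to Affymetrix rat gene arrays, 2 arrays per culture. The deposited values are log2 signals that, per the submitters' processing notes, the authors obtained with RMA and Affymetrix Expression Console. The version and the background setting are not given in the sources used here, and the log base was read from the range of values, 1.53 to 14.0. An array has no count depth, so the number of cultures limits precision.

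Of 29215 probe sets, 15316 had exactly 1 gene symbol in the platform annotation and were tested, for 14511 genes. The 317 with several symbols and the 13582 with none were left out. Probe sets of a gene were not merged. RefSeq held the Entrez gene of 15279.

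Both arrays of a culture were averaged, and limma 3.58.1 (R 4.3.3, lmFit and eBayes) was run on all 16 culture means with 8 coefficients, for tissue, stage and grafted or ungrafted state (8 residual degrees of freedom). First and second transplantation used 11 coefficients (5 residual degrees of freedom). All tests were two-sided, and p-values were adjusted by Benjamini-Hochberg over 15316 probe sets with a threshold of 0.05. The code was tested on simulated data. P-values measure the spread between cultures, whose independence the labels do not state. In some groups this spread includes differences between bulk and clonal cultures. With 8 coefficients it also includes differences between first and second transplantation.

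Named genes were the 12 largest increases and decreases past the threshold whose arrays did not overlap, up to 4 list members past it, the top genes of the other contrasts and a panel. List members that did not pass, Mtap and Cdkn2b were added after their values were seen. The cultures, markers and 29 lists were chosen with earlier results of these data known. Array numbers were checked as pairs: differences between array 1 and array 2 correlated between cultures at -0.64 to 0.57 (median -0.01, 120 pairs), so the number was not used as a pairing. Alternatives changed the samples in the fit, the control arm, the grouping, the unit, the scaling, the filter, the variance model and the culture or array left out.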

Additional observations from a re-analysis of the deposited data

Results flagged for a closer look

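The response to grafting, grafted minus ungrafted, differed between E16 and 4-month thymic cultures in a direct limma test for 3 genes. For Slc2a3, a glucose transporter, E16 minus 4-month was 4.61 ± 0.52 (SE, adjusted p = 0.0114). Its levels at E16 were 4.01 to 4.47 in grafted clones and 4.47 in the ungrafted clone, and at 4 months 3.98 and 5.0 in grafted cultures and 9.69 and 8.90 in ungrafted ones. For Fezf1, a zinc finger transcription factor, it was -2.76 ± 0.30 (adjusted p = 0.00959). Fezf1 was at 4.50 to 5.05 in grafted E16 clones and 4.74 in the ungrafted clone, and at 4 months at 7.83 and 7.31 in grafted cultures and 4.71 and 4.79 in ungrafted ones. For Mx1 it was -2.33 ± 0.23 (adjusted p = 0.00845), where ungrafted PRE16cl11_VII was the high culture.

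In 8 of 47 named probe sets, 1 of the 4 grafted E16 clones lay far from the other 3 by Dixon's test, which chance alone marks in about 1 in 20 such groups. Clone_347 was high for Sult1d1 (9.30, the others 8.58 to 8.64) and Tmem45b (7.69, the others 7.07 to 7.15). It was low for Dlx5 (6.50, the others 7.38 to 7.53), Snurf (4.79, the others 5.24 to 5.28) and Vim, a filament protein of mesenchymal and cultured cells (6.85, the others 9.87 to 10.25). Clone_217 was high for Pif1 (7.16, the others 6.80 to 6.84), Clone_287 for Tp63 (9.58, the others 9.10 to 9.18) and Clone_218 for Tmtc2 (4.15, the others 2.60 to 2.67). Clone_347 also had the lowest correlation between its arrays. The cause of these values was not tested.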

How the results depend on the processing

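The ungrafted arm is 1 culture, so its own deviation enters every difference, and signals near 4 are limited by an unknown background. Against 51 calls in the comparison of grafted with ungrafted E16 clones, the count was 34 with only the 5 E16 cultures (14 of the 51 kept), 82 with only the 12 thymic cultures, 9 with 11 coefficients, 1771 with 4 ungrafted thymic cultures as controls, 603 with each array as a unit and its culture a random effect, and 31 with a mean level of at least 5, where 10013 probe sets were tested. Centring arrays on their medians gave 51 (10 higher, 41 lower, against 13 and 38), and an intensity trend gave 55. Leaving out 1 culture or ungrafted array gave 24 (Clone_217) to 126 (Clone_218), with 25 without Clone_57 or Clone_194, 30 without YR219P5_RC or Clone_54 and 108 without YR219P5_Bulk_V or YR219P5cl7. Of 27 named probe sets past the threshold, 16 passed in all 17 such fits and 11 did not. Of the 27, 16 lost the call with only the 5 E16 cultures, 19 with 11 coefficients, 7 with 4 controls, 5 after centring (Dlx5, Cdc25b, Pif1, Tmtc2 and Slc39a8) and 3 with only thymic cultures (Gclm, Tmtc2 and Slc39a8). After the first transplantation the 6 calls became 0 with only E16 cultures, 370 with arrays as the unit and 2 at a level of at least 5, with 2 to 7 on leaving out a clone (2 without Clone_217). After the second the 7 became 586 and 4, with 6 to 20 (20 without Clone_217 or Clone_218). The second against the first gave 1 with arrays as the unit and 0 to 1 (1 without Clone_217). The difference from P1 responses gave 2 with only thymic cultures and 35 with arrays as the unit. The difference from 4-month responses gave 103 with arrays as the unit, and 3 to 11 on leaving out a culture (11 without PRP4mo_Cl09, 7 without Clone_218, 5 without PRP4mo_bulk). With the replicate block (array number) added to arrays as the unit, the counts were 575 for grafted against ungrafted, 348 and 553 after the first and second transplantation, 1 between these, 31 against P1 and 87 against 4 months. Array numbers do not pair the cultures. Signs turned for 2 genes near 0 that passed nowhere. Foxn1 was -0.049 with 4 controls and -0.005 after centring, and -0.054 to 0.128 on leaving out samples. Cdkn1a was -0.021 after centring and -0.077 to 0.104 on leaving out samples. The causes of these shifts were not tested.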
